A study of Mus musculus with 79 samples.

Results

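The 50 genes described here are 25 genes of DNA replication and 25 genes of mitosis, chosen by name and followed through retinoic acid treatment of mouse embryonic stem cells. Each gene was represented by 1 transcript, the one with the highest mean signal, and the same transcript was used in all experiments. All 50 were among the 15084 genes with enough reads to be tested in E14 cells, the 14031 tested in SCC1-mAID cells and the 15923 tested in the Hoxb clones. RNA sequencing gave 79 libraries in 3 sets, all from cells grown in serum and LIF on gelatin, and all with Drosophila SG4 cells added before extraction. Retinoic acid (RA), a vitamin A derivative that drives these cells out of pluripotency, was used at 1 uM. In the first set, wildtype E14 cells, an established mouse embryonic stem cell line, gave total RNA at 0 h (2 libraries), 2, 4, 6, 48 and 72 h (4 each) and 24 h (3) of RA. In the second, E14;Rosa26::Tir1;Scc1-mAID-eGFP cells, in which auxin (IAA, 500 uM) triggers destruction of the cohesin subunit SCC1, gave nuclear RNA with no treatment, with RA for 4 h, with auxin for 6 h, or with both, RA being added 2 h after auxin (3 libraries each). All 4 of those groups carry the plant receptor and the tagged SCC1, and no untagged line was compared with them here. In the third, clone G4 (E14;HoxTransEwt) and clones E3 and H12 (E14;HoxTransEdel), which lack a transient enhancer in the Hoxb locus, gave nuclear RNA before RA and after 2, 4, 6, 24, 48 or 74 h of it (2 libraries for each clone and time). Each genotype of that set rests on 1 wildtype and 2 deleted clones, so a difference between genotypes cannot be told apart from a difference between clones.

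Before a cell divides, replication origins are licensed in G1 by loading of the MCM2-7 helicase, a step that needs CDC6 and CDT1. In S phase CDC45 and the GINS complex turn the loaded helicase on, cyclin E with CDK2 helps start the process, and polymerases, the PCNA clamp and its RFC loader copy the DNA from nucleotides made by ribonucleotide reductase and thymidylate synthase. In G2 and mitosis cyclin A and cyclin B with CDK1, the Polo and Aurora kinases, the spindle checkpoint and the anaphase-promoting complex (APC/C) carry the chromosomes through segregation. Replication genes are textbook targets of E2F factors, and mitotic genes carry CHR and CCAAT elements bound by the MuvB complex with B-MYB or FOXM1 and by NF-Y. Embryonic stem cells are known for a short G1 phase and for high cyclin E through the whole cycle.

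The promoters of 6 members, 3 of each class, are shown as examples of the stretches searched for E2F, CHR and NF-Y letters. Only members with a match were picked, in a fixed order, so Cdc6 and Ccne1, which had none, were passed over. The printed stretches are the 250 bases before the RefSeq start site in GRCm38.p6, on the gene's own strand, with matches to the searched letters in capitals. The E2F letters were TTTCGCG and also TTTGGCG, the CHR letters were TTTGAA, and the NF-Y letters were CCAAT, each read on both strands. The replication genes shown encode 2 helicase subunits and the sliding clamp, and lie at chr6:88898781-88899030 (Mcm2, minus strand), chr8:75109259-75109508 (Mcm5, plus strand) and chr2:132253181-132253430 (Pcna, minus strand).
Mcm2: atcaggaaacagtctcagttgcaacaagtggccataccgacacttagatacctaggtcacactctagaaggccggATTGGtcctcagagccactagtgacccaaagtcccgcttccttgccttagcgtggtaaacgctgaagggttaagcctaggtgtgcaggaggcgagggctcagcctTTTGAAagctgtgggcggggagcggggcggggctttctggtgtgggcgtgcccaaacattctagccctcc
Mcm5: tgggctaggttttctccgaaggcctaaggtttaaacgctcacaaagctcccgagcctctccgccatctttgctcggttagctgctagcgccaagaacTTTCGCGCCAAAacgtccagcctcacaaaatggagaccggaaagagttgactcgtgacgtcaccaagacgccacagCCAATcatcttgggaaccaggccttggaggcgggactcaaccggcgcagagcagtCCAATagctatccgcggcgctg
Pcna: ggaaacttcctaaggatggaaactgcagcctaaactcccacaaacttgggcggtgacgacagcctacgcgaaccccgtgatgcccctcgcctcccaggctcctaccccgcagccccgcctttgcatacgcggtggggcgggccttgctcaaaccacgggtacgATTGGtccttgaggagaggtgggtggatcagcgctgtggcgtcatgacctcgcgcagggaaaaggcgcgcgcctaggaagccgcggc
The Mcm5 promoter held E2F letters on both strands in 1 overlapping run, 153 and 148 bases before the start, and NF-Y letters 77 and 22 bases before it. The Mcm2 promoter held NF-Y letters 175 bases and CHR letters 70 bases before the start, and the Pcna promoter held NF-Y letters 87 bases before it. The mitotic genes shown encode cyclin B1, its kinase CDK1 and Polo-like kinase 1, and lie at chr13:100786487-100786736 (Ccnb1, minus strand), chr10:69352913-69353162 (Cdk1, minus strand) and chr7:122159185-122159434 (Plk1, plus strand).
Ccnb1: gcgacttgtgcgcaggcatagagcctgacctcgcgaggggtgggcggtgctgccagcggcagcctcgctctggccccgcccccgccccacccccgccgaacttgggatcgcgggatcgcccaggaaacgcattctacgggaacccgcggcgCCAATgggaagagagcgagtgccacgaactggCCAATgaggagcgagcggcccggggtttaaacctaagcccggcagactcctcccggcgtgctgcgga
Cdk1: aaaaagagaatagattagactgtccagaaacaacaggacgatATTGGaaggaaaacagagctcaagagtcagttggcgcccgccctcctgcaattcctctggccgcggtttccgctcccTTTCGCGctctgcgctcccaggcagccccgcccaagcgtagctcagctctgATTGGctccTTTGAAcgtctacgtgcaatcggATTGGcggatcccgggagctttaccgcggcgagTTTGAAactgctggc
Plk1: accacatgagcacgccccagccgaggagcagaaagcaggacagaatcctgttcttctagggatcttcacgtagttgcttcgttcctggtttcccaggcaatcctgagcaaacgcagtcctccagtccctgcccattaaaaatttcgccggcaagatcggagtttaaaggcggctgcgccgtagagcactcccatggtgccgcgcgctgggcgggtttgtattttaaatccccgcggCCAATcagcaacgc
The Cdk1 promoter held 3 NF-Y, 2 CHR and 1 E2F match, of which the CHR matches stood 71 and 15 bases before the start. Ccnb1 held 2 NF-Y matches, 99 and 67 bases before the start. Plk1 held NF-Y letters 14 bases before the start, and its CHR letters lay 31 bases after it, outside the printed stretch.

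A window of 300 bases, 250 before and 50 after the start, was at hand for 42 of the 50 members, 21 in each class. E2F letters stood in 9 of 21 replication windows and in 1 of 21 mitotic windows, against 2.365% of 32851 windows of the genome. CHR letters stood in 3 of 21 replication and 15 of 21 mitotic windows, against 17.89% of all windows. NF-Y letters stood in 13 and 18 of 21, against 37.41%. These matches describe the letters only. Of the 42 windows, 8 held none of the 3 motifs in these letters, 5 of them of replication members (Ccne1, Cdc6, Fen1, Rfc4 and Tyms) and 3 of mitotic members (Birc5, Mad2l1 and Nusap1).

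Between 2352114 and 21082331 reads fell in genes per E14 library, between 3126256 and 7498736 per SCC1-mAID library and between 4754309 and 10450047 per clone library, and the 0 h libraries were the deepest of the E14 set. Levels below are read counts relative to the library total after TMM scaling (CPM), and the 2, 3 or 4 values of a group are in replicate order. Changes are log2 fold changes ± SE. A change was called at an adjusted p under 0.05 over all tested genes. Signals in nuclear RNA covered introns as well as exons, so CPM values are not compared between total and nuclear RNA. The summed level of 12 embryonic stem cell markers was 4951 to 5068 CPM at 0 h and 669.7 to 2023 CPM at 72 h in E14 cells, with all 12 detected at both times. Summed endoderm markers (8 genes) stood at 533 to 568 CPM at 0 h and 1575 to 2504 CPM at 72 h, 7 fibroblast or feeder markers at 102 to 103 and 535 to 795 CPM, and 8 neural progenitor markers at 175 to 187 and 159 to 349 CPM. Of the 8 neural markers 6 were called higher at 72 h (median 3.28) and 1, Tubb3, was lower (−2.16 ± 0.24). Their part in the results below was not tested. A fall of a transcript in bulk RNA can be fewer cells of a type or less RNA per cell, which cannot be told apart.

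By the deposited FPKM, which corrects for transcript length, the 2 classes had overlapping ranges of level in untreated E14 cells. The replication members ran from 9.41 FPKM (Cdc6) to 94.4 FPKM (Ccne1), with a median of 27.2, and the mitotic members from 4.21 FPKM (Cdkn3) to 82.4 FPKM (Top2a), with a median of 28.2. Ccne1, encoding cyclin E1, was the highest of the 50, at 94.6 and 94.2 FPKM in the 2 libraries, and Top2a, the topoisomerase that untangles sister chromatids, followed at 82.9 and 81.8. Mcm7 (78.8 and 73.1 FPKM), Cdc20 (74.8 and 76.3) and Ube2c (72.4 and 75.8) came next, and the ranges of these 3 over the 2 libraries overlapped. The helicase subunits Mcm2 to Mcm7 lay between 43.5 and 75.9 FPKM. The last places were taken by Gins2 at 12.3 FPKM, Tyms at 11.1, Cdc6 at 9.41 and Cdkn3 at 4.21, and the values of those 4 did not overlap.

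In the first 6 h of RA no change of the 50 genes passed the test in E14 cells. No member was called at 2 to 6 h against 0 h, where 3.30% of all tested genes were called (1.90% higher, 1.40% lower), and at an unadjusted p under 0.05 there were 0 replication and 2 mitotic members. The median log2 fold change was 0.04 over the replication members and 0.06 over the mitotic members. Over the 12 libraries at 2, 4 and 6 h, Mcm2 had a lowest, median and highest level of 333, 398 and 451 CPM, against 401 and 379 at 0 h. Ccne1 stood at 254, 321 and 368 CPM in these 12, against 329 and 329.97. Ccnb1, the gene of cyclin B1, stood at 142, 179 and 194 CPM, against 159 and 156. Cdk1, the gene of its kinase partner, had the values 146, 166 and 198 CPM, against 132 and 138. All 12 early values of Cdk1 lay above both 0 h values, with a log2 fold change of 0.31 ± 0.10 (SE) and an adjusted p of 0.103. The 0 h values of the other 3 lay within the early range.

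From 24 h on more replication than mitotic members were lower in E14 cells, and by 72 h the median change of the mitotic members was back at 0.00. At 24 h, 5 replication members were lower and none higher, and 1 mitotic member was higher and none lower, with 27.4% of all tested genes called (14.1% higher, 13.3% lower). At 48 h, 18 of 25 replication and 12 of 25 mitotic members were lower and none was higher, with 55.7% of all genes called (28.9% higher, 26.9% lower). At 72 h, 13 replication members were lower and 3 higher, and 5 mitotic members were lower and 2 higher, with 59.7% of all genes called (30.4% higher, 29.3% lower). The median log2 fold change of the replication members was −0.16, −0.47 and −0.33 at 24, 48 and 72 h, that of the mitotic members was −0.06, −0.29 and 0.00, and that of all tested genes was 0.02, 0.01 and 0.00. The total count of 23 members called at 72 h became 15 without the 0 h library of replicate 4, and the total of 6 at 24 h became 3 without the 0 h library of replicate 3. The total of 30 at 48 h became 22 without that same library of replicate 3.

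The calls at 72 h depended on how the libraries were scaled. With the size factors of the deposited values in place of TMM, the median of all tested genes at 72 h moved from 0.00 to 0.27, and the genes called went from 4587 higher and 4423 lower to 5886 higher and 2800 lower. On that scale 5 replication members were lower and 4 higher (median −0.06), and 2 mitotic members were lower and 7 higher (median 0.27). At 48 h the same change of scale left 13 replication and 8 mitotic members lower and none higher. The distance between the classes depends little on the scaling, since a size factor moves both alike.

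For each library, the mean log2(CPM + 1) of the 25 members of a class was set against its mean in the 0 h libraries. The replication value minus the mitotic value was 0.01 and −0.01 in the 0 h libraries of E14 cells, −0.22, −0.21 and −0.13 at 24 h, −0.23, −0.18, −0.23 and −0.32 at 48 h and −0.31, −0.28, −0.35 and −0.14 at 72 h. All 11 libraries from 24 h on lay below both 0 h libraries, while the 12 libraries from 2 to 6 h lay between −0.10 and 0.01. At 48 h both classes were down, with a replication value of −0.52 ± 0.09 and a mitotic value of −0.28 ± 0.11 (SD, n = 4). At 72 h the replication value was −0.33 ± 0.10 and the mitotic value −0.06 ± 0.10 (SD, n = 4). The difference between the medians of the classes at 72 h was −0.33, and −0.18 without Ccne1, Ccna2, Esco2 and Cdca5, while at 48 h it was −0.18, and −0.09 without those 4.

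**Figure D1:**
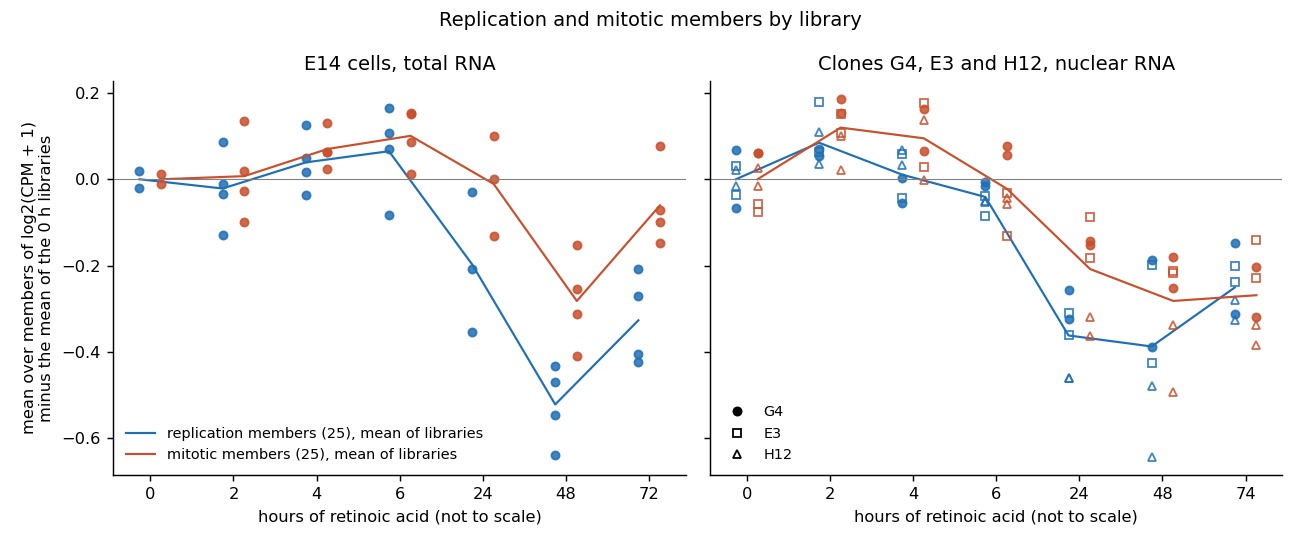
Mean change in log2(CPM + 1) of the 25 replication and the 25 mitotic members in each library, relative to the mean of the untreated libraries of its set, against hours of RA. In E14 cells both classes were lowest at 48 h and the mitotic mean was −0.06 at 72 h, and in the clones the classes were at −0.25 and −0.27 at 74 h.

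In E14 cells most members were at their lowest at 48 h. The lowest group mean over the 7 times fell at 48 h for 19 replication and 18 mitotic members. Of the 18 replication members lower at 48 h, 13 were still called lower at 72 h and 5 were not. Of the 12 mitotic members lower at 48 h, 5 were still called lower at 72 h and 7 were not. The members called higher at 72 h (Gins2, Rfc3, Rrm1, Aurkb and Cdkn3) had no call at 48 h. In the clones described below, the lowest mean fell at 48 h for only 8 replication and 7 mitotic members. It fell at 24 h for 8 and 8 and at 74 h for 7 and 9. The counts of lowest means include members without a call. The shares of all tested genes with their lowest mean at 48 h, or with a call at 48 h kept at 72 h, are not given here. The counts in this paragraph thus have no background.

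Most helicase subunits fell at 48 h. Of Mcm2 to Mcm7, 5 were lower at 48 h (median −0.55) and 3 at 72 h (median −0.29), and on the authors' scaling 4 and 0 (medians −0.50 and −0.01). Mcm2 stood at 401 and 379 CPM at 0 h, 295, 367 and 395 at 24 h, 213, 254, 207 and 241 at 48 h and 258, 239, 269 and 317 at 72 h. The 48 h and 72 h libraries were all below both 0 h libraries, with log2 fold changes of −0.77 ± 0.14, adjusted p = 3.03e-05, and −0.53 ± 0.14, adjusted p = 0.00156. Mcm5 showed the same order, with 371 and 361 CPM at 0 h, 307, 323 and 353 at 24 h, 240.1, 232, 194 and 231 at 48 h and 235, 221, 239 and 284 at 72 h. Its changes were −0.71 ± 0.12, adjusted p = 2.22e-05 at 48 h and −0.58 ± 0.12, adjusted p = 1.91e-04 at 72 h. On the authors' scaling the 72 h values were −0.25, adjusted p = 0.248 for Mcm2 and −0.30, adjusted p = 0.121 for Mcm5, so neither was called there.

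The licensing and activation genes held the largest single fall and also a rise. Of Mcm10, Cdc6, Cdt1, Gins1, Gins2, Cdc45 and Ccne1, 5 were lower at 48 h, and 5 were lower and 1 higher at 72 h, with 3 lower and 1 higher at 72 h on the authors' scaling. Ccne1 (chromosome 7, 38097984 to 38107490, minus strand, in mm10) encodes cyclin E1, the partner of CDK2 at the start of S phase. It stood at 329 and 329.97 CPM at 0 h, 170.5, 169.6 and 179 at 24 h, 114, 107, 98.3 and 102 at 48 h and 88, 85.2, 105 and 92.9 at 72 h. The groups at 0, 24 and 48 h did not overlap, and the 48 h and 72 h groups did. The changes were −0.93 ± 0.14, adjusted p = 2.83e-05 at 24 h, −1.64 ± 0.13, adjusted p = 2.78e-10 at 48 h and −1.83 ± 0.13, adjusted p = 2.61e-11 at 72 h, and on the authors' scaling the 72 h value was −1.55, adjusted p = 1.25e-08. Mcm10, which joins the helicase when origins fire, and Cdt1, the loader, were also called at all 3 late times, with Mcm10 at −0.65, −1.14 and −0.94 and Cdt1 at −0.60, −0.86 and −0.68. At 24 h Cdt1 was not called without the library at 0 h replicate 3 (adjusted p 0.0522).

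Cdc6, the other loader, stood at 79.4 and 72.7 CPM at 0 h, 62.9, 58.2 and 84.4 at 24 h, 45.6, 54.5, 44.6 and 54.6 at 48 h and 47.6, 58.6, 65.9 and 69.8 at 72 h. All 4 libraries at 48 h and at 72 h were below both 0 h libraries, with changes of −0.61 ± 0.14, adjusted p = 8.09e-04 and −0.33 ± 0.14, adjusted p = 0.0476. The 72 h call was lost without the library at 0 h replicate 3 or 4 or 72 h replicate 1 or 2 (adjusted p from 0.0771 to 0.224). Gins2 (chromosome 8, 120581266 to 120589075, minus strand), a subunit of the GINS complex of the active helicase, went the other way. It stood at 22.4 and 23.1 CPM at 0 h, 19.6, 24.5 and 22.9 at 24 h, 19.1, 29.3, 27.5 and 25.7 at 48 h and 35.8, 29.1, 36.6 and 43.4 at 72 h, and every 72 h library was above both 0 h libraries. The change was 0.67 ± 0.19, adjusted p = 0.00329 at 72 h, and it was 0.69 ± 0.18, adjusted p = 0.00335 between 24 and 72 h. Its partner Gins1 had −0.50 at 72 h and was called lower. Gins2 overlaps Gse1 on the opposite strand, and whether counting used the strand is not stated.

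The genes of the fork moved in both directions. Of Pcna, Rfc3, Rfc4, Pola1, Prim1, Fen1 and Lig1, 4 were lower at 48 h (median −0.27), and 2 were lower and 1 higher at 72 h (median −0.06), while on the authors' scaling 1 was lower at 48 h and 2 were higher at 72 h. Pcna, the sliding clamp, stood at 138 and 131 CPM at 0 h, 105, 102 and 143 at 24 h, 112, 106, 91.1 and 94.2 at 48 h and 103, 100.05, 100.1 and 118 at 72 h. Its 24 h libraries spanned its 0 h values, and its 48 h and 72 h libraries lay below them, with changes of −0.41 ± 0.14, adjusted p = 0.0136 and −0.35 ± 0.14, adjusted p = 0.0319. The 48 h call was lost without the library at 0 h replicate 3 (adjusted p 0.0811), and the 72 h call without the library at 0 h replicate 3 or 4 or 72 h replicate 2 or 3 (adjusted p from 0.0647 to 0.141). Pola1, the catalytic subunit of the primase polymerase, stood at 119.7 and 115 CPM at 0 h, 114, 109 and 157 at 24 h, 92.9, 98.9, 78.1 and 85.9 at 48 h and 82.1, 119, 129 and 94.6 at 72 h. It was called lower at 48 h (−0.40 ± 0.16, adjusted p = 0.0404) but not at 72 h (−0.14 ± 0.16, adjusted p = 0.474), where its libraries fell on both sides of the 0 h values. The 48 h call was lost without the library at 0 h replicate 3 or 4 or 48 h replicate 3 or 4 (adjusted p from 0.0654 to 0.15). Rfc3, a subunit of the clamp loader, stood at 37.2 and 36.4 CPM at 0 h, 31.2, 37.5 and 41.9 at 24 h, 37.9, 37.8, 34.5 and 39.97 at 48 h and 49.3, 42.1, 49.3 and 61.5 at 72 h. Its 72 h libraries were above both 0 h libraries (0.45 ± 0.13, adjusted p = 0.00503), a call lost without the library at 0 h replicate 4 (adjusted p 0.0524). Fen1, the flap endonuclease, had −0.46, −0.77 and −0.52 at the 3 late times, each called lower, and the 24 h call was lost on the authors' scaling and without the library at 0 h replicate 3 or 4 or 24 h replicate 1 or 3 or 4 (adjusted p from 0.069 to 0.264), and the 72 h call without the library at 0 h replicate 4 (adjusted p 0.0808).

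Rrm1 and Rrm2 encode the 2 subunits of ribonucleotide reductase, which makes deoxynucleotides. Rrm1, the large subunit, stood at 179 and 167 CPM at 0 h, 166, 188 and 250.5 at 24 h, 167, 199.7, 170.4 and 197 at 48 h and 220.1, 217, 302 and 313 at 72 h. All 72 h libraries were above both 0 h libraries, with a change of 0.60 ± 0.15, adjusted p = 0.00152, while at 48 h there was no call (0.08 ± 0.15). Rrm2, the S-phase subunit, stood at 217 and 207 CPM at 0 h, 157, 170.3 and 207 at 24 h, 148, 144, 115 and 168 at 48 h and 159, 172, 209.5 and 201 at 72 h. It was lower at 48 h (−0.56 ± 0.13, adjusted p = 7.80e-04) and not called at 72 h (−0.19 ± 0.13, adjusted p = 0.213), where 1 of 4 libraries lay between the 0 h values and 3 below them. Tyms, thymidylate synthase, was lower at 48 h (−0.58) and at 72 h (−0.49).

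Both genes that tie cohesin to replication fell and stayed down. Esco2 (chromosome 14, 65819027 to 65833969, minus strand), the S-phase acetyltransferase of cohesin, stood at 128 and 126 CPM at 0 h, 92.6, 107 and 120.3 at 24 h, 79, 78.9, 59.1 and 64.1 at 48 h and 69.96, 60.5, 60.2 and 42.5 at 72 h. Every library from 24 h on was below both 0 h libraries. The changes were −0.85 ± 0.15, adjusted p = 1.99e-05 at 48 h and −1.12 ± 0.15, adjusted p = 3.15e-07 at 72 h. Cdca5, or sororin, which protects cohesion until mitosis, stood at 81.4 and 80.3 CPM at 0 h, 44.7, 53.9 and 58.4 at 24 h, 40.7, 40.4, 38.3 and 38 at 48 h and 39.7, 44.6, 39 and 40.5 at 72 h. It had already fallen at 24 h (−0.63 ± 0.13, adjusted p = 6.98e-04) and stood at −0.98 ± 0.12, adjusted p = 1.60e-07 at 72 h, and its 48 h and 72 h libraries overlapped. Both were still called at 72 h on the authors' scaling, Esco2 at −0.85, adjusted p = 1.01e-04 and Cdca5 at −0.72, adjusted p = 1.72e-04.

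Among the mitotic cyclins, Ccnb1 fell, and Ccna2 passed the test at neither 48 h nor 72 h. Of Ccna2, Ccnb1, Ccnb2, Cdk1 and Cdkn3, 2 were lower at 48 h, and 1 was lower and 1 higher at 72 h, with 1 lower and 2 higher at 72 h on the authors' scaling. Ccnb1 (chromosome 13, 100778739 to 100786486, minus strand) stood at 159 and 156 CPM at 0 h, 123, 126 and 139 at 24 h, 99.5, 74.5, 90.1 and 90.6 at 48 h and 88.4, 91.5, 91.9 and 91.3 at 72 h. Its 48 h and 72 h libraries were all below both the 0 h and the 24 h libraries, with changes of −0.83 ± 0.12, adjusted p = 3.93e-06 and −0.80 ± 0.12, adjusted p = 4.82e-06. It was still called at 72 h on the authors' scaling (−0.52, adjusted p = 0.00276). Ccna2, the cyclin of both S phase and G2, stood at 222 and 208 CPM at 0 h, 174, 187 and 209 at 24 h, 182, 187, 148 and 202 at 48 h and 228, 189, 236 and 216 at 72 h. Its 72 h libraries fell on both sides of the 0 h values (0.01 ± 0.12, adjusted p = 0.93), and it was not called at 48 h (−0.26 ± 0.12, adjusted p = 0.061). Cdk1 stood at 132 and 138 CPM at 0 h, 128, 116 and 117 at 24 h, 95.4, 106, 90.1 and 106 at 48 h and 124, 120.3, 143 and 139 at 72 h, with a call at 48 h (−0.44 ± 0.11, adjusted p = 0.00172) and none at 72 h (−0.03 ± 0.11, adjusted p = 0.813). Cdkn3, a phosphatase that acts on CDKs and the lowest of the 50 genes, stood at 5.83 and 5.78 CPM at 0 h, 6.77, 7.85 and 8.89 at 24 h, 5.57, 7.04, 7.27 and 9.5 at 48 h and 9.2, 9.18, 10.9 and 9.5 at 72 h. All 4 libraries at 72 h were above those at 0 h (0.74 ± 0.28, adjusted p = 0.0237), and the call was lost without the library at 0 h replicate 3 or 4 or 72 h replicate 3 (adjusted p from 0.0584 to 0.105).

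**Figure D2:**
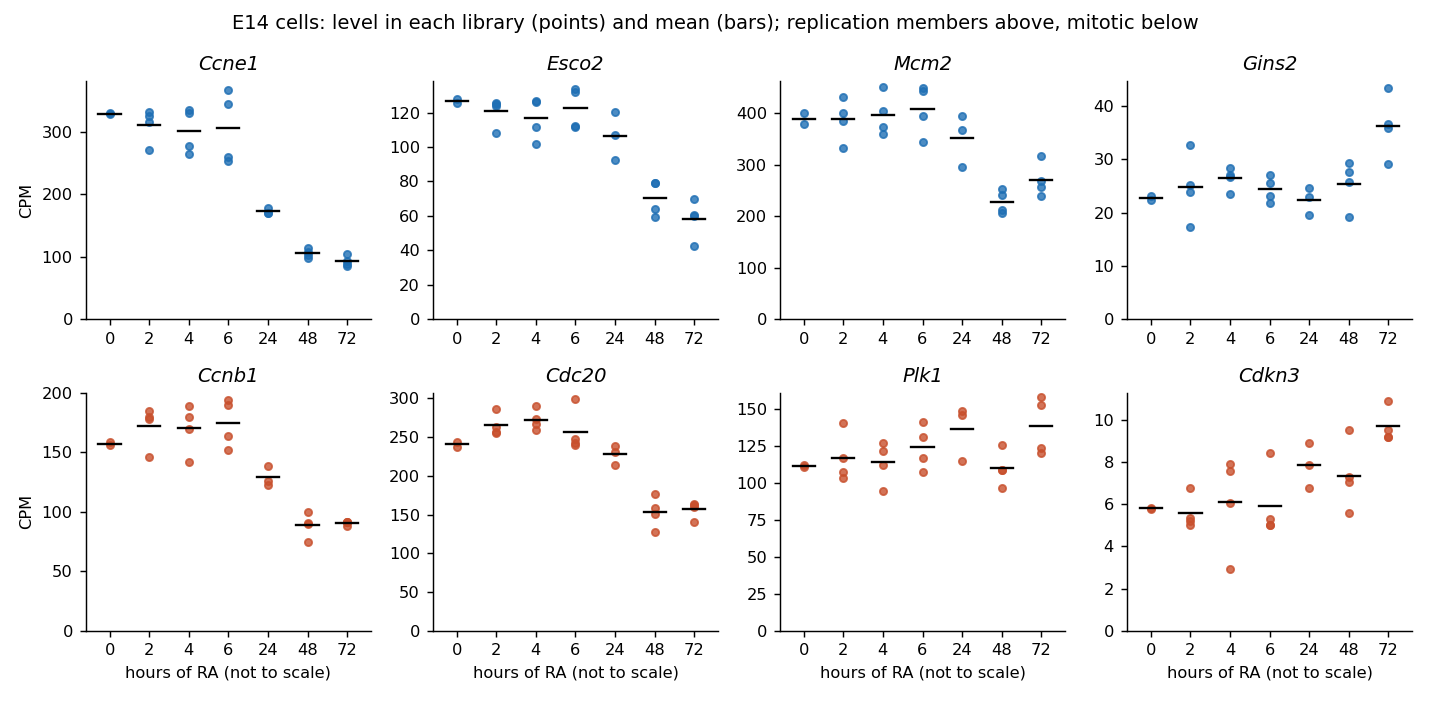
Level in CPM, on axes that start at 0, of 4 replication members (Ccne1, Esco2, Mcm2, Gins2) and 4 mitotic members (Ccnb1, Cdc20, Plk1, Cdkn3) in each E14 library (points) with group means (bars), against hours of RA. Ccne1 and Esco2 ended at their lowest levels, Mcm2 was lowest at 48 h, Ccnb1 and Cdc20 stayed down from 48 h, and Gins2 and Cdkn3 ended above 0 h.

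The mitotic kinases and the passenger complex held calls in both directions. Of Plk1, Aurka, Aurkb, Bub1, Birc5, Ttk and Tpx2, 3 were lower at 48 h, and 2 were lower and 1 higher at 72 h, with 1 lower and 3 higher at 72 h on the authors' scaling. Plk1, the Polo-like kinase of mitotic entry, stood at 112 and 111 CPM at 0 h, 115, 148 and 146 at 24 h, 109, 109, 96.8 and 126 at 48 h and 124, 120.3, 158 and 152 at 72 h. Every library at 24 h and 72 h was above both 0 h libraries, but the changes were not called (0.29 ± 0.16, adjusted p = 0.168 at 24 h, 0.32 ± 0.15, adjusted p = 0.0708 at 72 h), and on the authors' scaling the 72 h change was 0.60, adjusted p = 0.0111. Aurka, the centrosome kinase, stood at 98.7 and 100.4 CPM at 0 h, 77.9, 84.3 and 79.99 at 24 h, 69.3, 69.3, 62.6 and 72.8 at 48 h and 89, 80.7, 92.5 and 92.9 at 72 h, all later values below those at 0 h. It was called at 48 h (−0.54 ± 0.12, adjusted p = 3.91e-04) and not at 72 h (−0.17 ± 0.12, adjusted p = 0.233). Aurkb and Birc5 encode the kinase and the survivin subunit of the chromosomal passenger complex and were called in opposite directions at 72 h. Aurkb stood at 58.7 and 55.8 CPM at 0 h, 60.7, 59.98 and 66.3 at 24 h, 47.3, 56.7, 53.1 and 61.7 at 48 h and 57.8, 69.97, 84.4 and 79.3 at 72 h, where 3 of 4 libraries were above both 0 h values (0.35 ± 0.12, adjusted p = 0.0173). That call was lost without the library at 0 h replicate 3 or 4 or 72 h replicate 3 (adjusted p from 0.0621 to 0.134). Birc5 stood at 103 and 106 CPM at 0 h, 97.4, 84.5 and 82.2 at 24 h, 71.3, 79.3, 61 and 72.8 at 48 h and 70.9, 73.5, 69.2 and 64.4 at 72 h, all later values below both 0 h values (−0.59 ± 0.10, adjusted p = 2.24e-05 at 72 h). On the authors' scaling Birc5 was at −0.32, adjusted p = 0.0438 and Aurkb at 0.62, adjusted p = 0.00116.

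The checkpoint and APC/C genes fell at 48 h. Of Bub1b, Mad2l1, Cdc20, Ube2c and Espl1, 4 were lower at 48 h and 2 at 72 h, and on the authors' scaling 2 and 0. Cdc20, the APC/C activator, stood at 237 and 244 CPM at 0 h, 214, 231 and 238 at 24 h, 177, 159, 127 and 151 at 48 h and 163, 140.3, 164 and 159 at 72 h. The 24 h libraries lay below or between the 0 h values, and the 48 h and 72 h libraries lay below all of them, with changes of −0.65 ± 0.11, adjusted p = 2.68e-05 and −0.62 ± 0.11, adjusted p = 3.78e-05. It was not called at 72 h on the authors' scaling (−0.34, adjusted p = 0.0666). Cdc20 overlaps Elovl1 on the opposite strand. Espl1, the separase that cuts cohesin, was lower at 48 h (−0.46) and at 72 h (−0.35), the latter not without the library at 0 h replicate 3 (adjusted p 0.0769).

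The chromosome and spindle genes had no call at 72 h. Of Top2a, Mki67, Kif11, Kif20a, Kif23, Cenpe, Cenpf and Nusap1, 3 were lower at 48 h, and at 72 h 2 were higher on the authors' scaling. Top2a stood at 770.04 and 764 CPM at 0 h, 633, 760.2 and 814 at 24 h, 534, 574, 485 and 581 at 48 h and 679, 695, 927 and 797 at 72 h. It was called lower at 48 h (−0.50 ± 0.14, adjusted p = 0.00326), and its 72 h libraries fell on both sides of the 0 h values (0.01 ± 0.14, adjusted p = 0.938). Mki67, the gene of the proliferation antigen Ki-67, stood at 551 and 502 CPM at 0 h, 561, 653 and 706 at 24 h, 461, 505, 498 and 607 at 48 h and 499, 610.4, 726 and 580.1 at 72 h, and was called at none of the late times on the TMM scale. At 72 h its change was 0.20 ± 0.18, adjusted p = 0.356, and on the authors' scaling 0.47, adjusted p = 0.0331. Nusap1, a spindle microtubule protein, was the 1 mitotic member called at 24 h (0.38 ± 0.14, adjusted p = 0.0479), a call lost on the authors' scaling and without the library at 0 h replicate 3 or 4 or 24 h replicate 3 or 4 (adjusted p from 0.131 to 0.249).

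**Figure D3:**
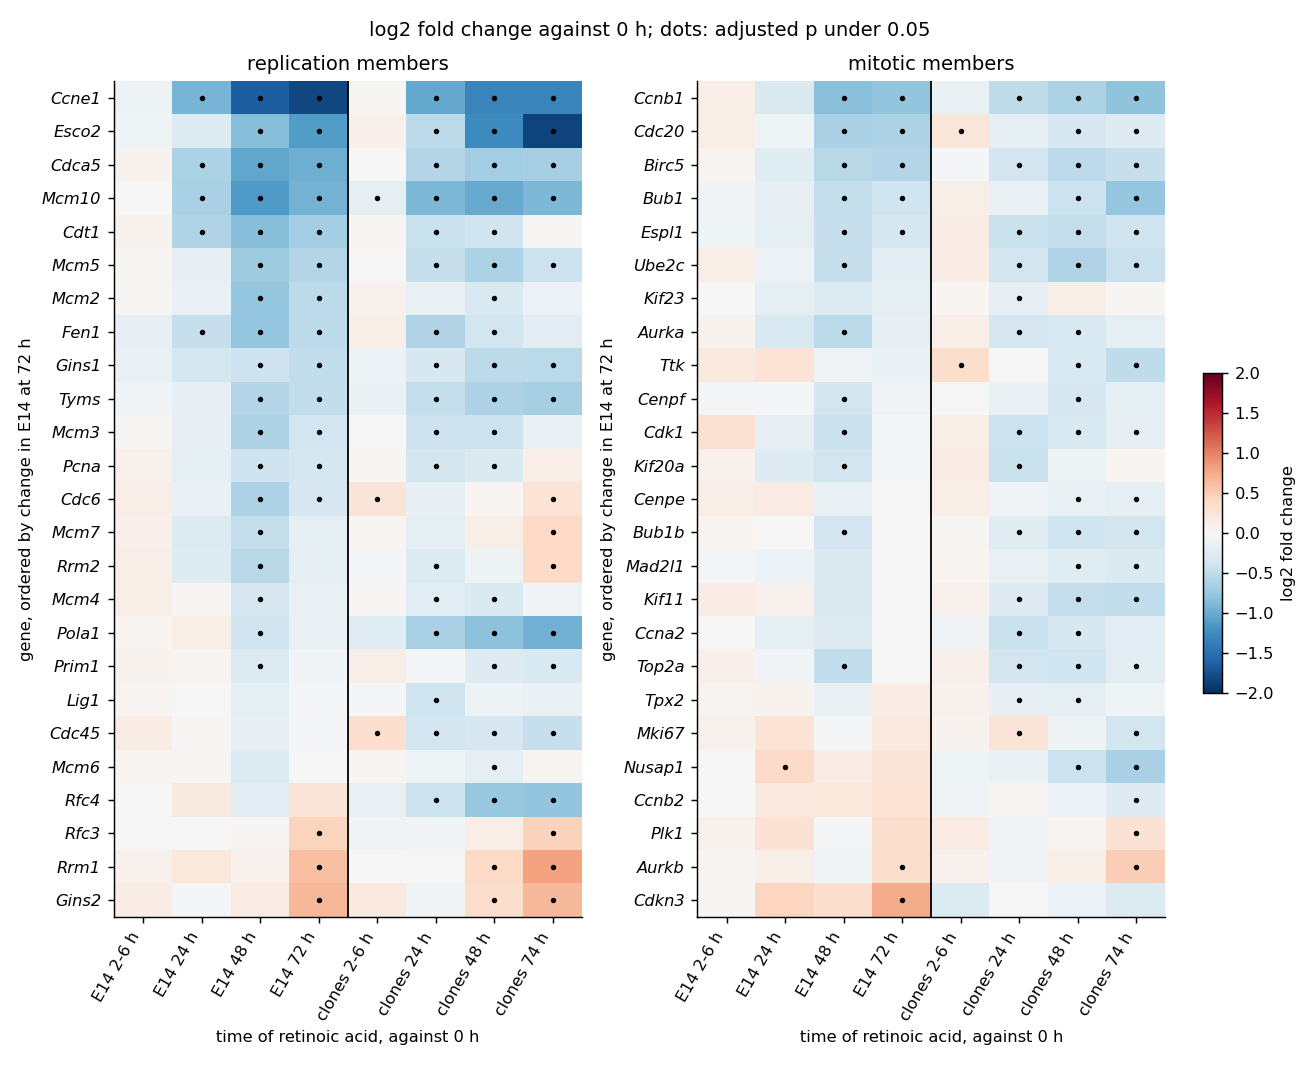
Log2 fold change against 0 h of each member (rows, ordered by the E14 change at 72 h within each class) in E14 cells and in the clones (columns, time of RA). Dots mark an adjusted p under 0.05, and the dots at E14 48 h cover 18 replication and 12 mitotic members, all lower.

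Between 24 and 72 h, a comparison that leaves out the 0 h libraries, 7 replication members fell and 3 rose, and 4 mitotic members fell and none rose, with 37.2% of all tested genes called. The replication members that fell include Ccne1 (−0.90 ± 0.12), Esco2 (−0.86 ± 0.14) and Mcm5 (−0.42 ± 0.11), and those that rose are Gins2 (0.69 ± 0.18), Rfc3 (0.46 ± 0.13) and Rrm1 (0.38 ± 0.14). The mitotic members that fell are Cdc20 (−0.54 ± 0.10), Ccnb1 (−0.51 ± 0.12), Ttk (−0.40 ± 0.10) and Birc5 (−0.34 ± 0.10). On the authors' scaling, which moves the median of all genes by 0.22 in this comparison, 2 replication members fell and 3 rose, and 5 mitotic members rose and none fell. Rfc3 lost its call without the library at 24 h replicate 1 (adjusted p 0.0587), Rrm1 without the library at 24 h replicate 1 or 3 or 72 h replicate 3 or 4 (adjusted p from 0.0974 to 0.183), and Birc5 without the library at 24 h replicate 1 (adjusted p 0.0647).

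Members with and without the searched letters were counted apart. Of the 9 replication members with E2F letters, 6 were lower at 48 h (median −0.47) and 4 were lower and 1 higher at 72 h (median −0.20). Of the 12 with a window but no such letters, 9 were lower at 48 h (median −0.57), and 7 were lower and 1 higher at 72 h (median −0.34). Of the 15 mitotic members with CHR letters, 8 were lower at 48 h (median −0.36), and 2 were lower and 1 higher at 72 h (median −0.03). Of the 6 without, 3 were lower at each of the 2 times, with medians of −0.38 and −0.20. No test was made of these splits.

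The rest of the cell cycle machinery was followed through lists of genes that are not among the 50. Of all tested genes in E14 cells, 26.9% were lower and 28.9% higher at 48 h, and 29.3% and 30.4% at 72 h. Of 40 other replication genes, 28 were lower and 1 higher at 48 h in E14 cells, and 18 were lower and 2 higher at 72 h (median −0.27). With the authors' scaling the count at 72 h was 5 lower and 8 higher (median 0.00). The origin recognition genes Orc5 (−1.55 ± 0.13, adjusted p = 1.20e-10) and Orc1 (−1.08 ± 0.15, adjusted p = 7.88e-07) and the polymerase subunit gene Pold1 (−0.82 ± 0.13, adjusted p = 4.50e-06) had the largest falls on the TMM scale. Of 40 other mitotic genes, 10 were lower and 7 higher at 72 h (median 0.01), or 5 lower and 13 higher with the authors' scaling. Spc24 of the kinetochore (−0.92 ± 0.15), Fbxo5, an inhibitor of the APC/C (−0.81 ± 0.12), and Cep55 of the midbody (−0.77 ± 0.18) had the largest changes there on the TMM scale, and Cdc25b, a phosphatase that activates CDK1, rose by a similar amount (0.75 ± 0.14).

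Among regulators that act on these genes and their products, the called genes of largest change in each list are named. Of all tested genes, 30.4% were higher and 29.3% lower at 72 h. Of 7 CDK inhibitor genes, 5 were higher and none lower at 72 h in E14 cells, and with the authors' scaling all 7 were higher. Cdkn2c, an inhibitor of CDK4 and CDK6, had a change of 2.68 ± 0.49, adjusted p = 4.26e-05, Cdkn2a, which encodes p16 and p19ARF, of 2.67 ± 0.50, adjusted p = 7.14e-05, and Cdkn1c, or p57, of 2.06 ± 0.35, adjusted p = 3.50e-05. Of 8 G1 cyclin and kinase genes, 1 was higher and 2 were lower at 72 h, or 2 higher and 1 lower with the authors' scaling. The gene that was higher is Ccnd2, which encodes cyclin D2, at 3.75 ± 0.55, adjusted p = 9.52e-06, while Ccne2 (−0.66 ± 0.13) and Cdk2 (−0.25 ± 0.10) were lower. Of 21 cell cycle transcription factor and pocket protein genes, 6 were higher and 10 lower, or 8 and 7 with the authors' scaling. Mybl2, which encodes B-MYB, had the largest change (−1.92 ± 0.22, adjusted p = 1.78e-07), followed by E2f2 (−1.38 ± 0.15) and Mycn (−1.26 ± 0.30).

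The Hoxb clones gave the same time course in nuclear RNA, with 6 libraries per time from 3 clones, fitted with a mean for each clone and time. At 2 to 6 h, 2 replication members were higher and 1 lower, and 2 mitotic members were higher, with 24.6% of all tested genes called (10.2% higher, 14.4% lower). Cdc45 of the active helicase (0.34 ± 0.06), Cdc6 (0.26 ± 0.08), the checkpoint kinase gene Ttk (0.36 ± 0.07) and Cdc20 (0.24 ± 0.08) were the members that rose, and Mcm10 (−0.18 ± 0.06) was the one that fell. This count of 5 was 3 without the 0 h library of E3 replicate 2, and also 3 without that of H12 replicate 2. Cdc20 was not called without the library of E3 0 h replicate 2, E3 2 h replicate 1, G4 0 h replicate 2, G4 4 h replicate 1 or H12 0 h replicate 2 (adjusted p from 0.0552 to 0.165), nor Mcm10 without that of E3 0 h replicate 2, E3 4 h replicate 1, E3 6 h replicate 1, G4 0 h replicate 1 or 2, G4 2 h replicate 1, H12 0 h replicate 1 or 2 or H12 4 h replicate 2 (adjusted p from 0.05 to 0.187). At 24 h, 17 replication members were lower and none higher, and 13 mitotic members were lower and 1 higher, with 55.5% of all genes called (28.3% higher, 27.2% lower). At 48 h, 18 replication members were lower and 2 higher, and 18 mitotic members were lower and none higher, with 69.8% called (35.0% higher, 34.8% lower). At 74 h, 11 replication members were lower and 6 higher, and 16 mitotic members were lower and 2 higher, with 73.7% called (36.5% higher, 37.2% lower). The scaling of the deposited values moved these counts by at most 1. When single libraries were left out, the total of 31 at 24 h ranged from 25 to 30. The total of 38 at 48 h then ranged from 31 to 37, and that of 35 at 74 h from 31 to 37. At 74 h all 12 stem cell markers were lower (median −4.90) and all 8 endoderm markers higher (3.92). Of the others, 7 of 8 neural markers were higher and 1 lower (median 4.21), and 5 of 6 tested fibroblast or feeder markers were higher and 1 lower (3.76). Their part in these counts was not tested.

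In the clones the medians of the classes were further apart at 24 h than at 48 h. The replication minus mitotic value of a library lay between −0.13 and 0.09 in the 6 libraries at 0 h, between −0.22 and −0.10 at 24 h, between −0.21 and 0.01 at 48 h and between −0.10 and 0.11 at 74 h, so that each later range overlapped that at 0 h. The median changes of the replication and the mitotic members were −0.38 and −0.18 at 24 h, −0.33 and −0.31 at 48 h, and −0.15 and −0.26 at 74 h. The 2 H12 libraries had the lowest values of both classes at 48 h, at −0.48 and −0.64 for replication and −0.34 and −0.49 for mitosis, against −0.19 to −0.43 and −0.18 to −0.25 in the 4 libraries of G4 and E3. The order of the medians over the 3 clones at 74 h was the opposite of that in E14 cells at 72 h. Taken apart at 74 h, with 2 libraries per clone, the mean replication and mitotic values were −0.23 and −0.26 in G4 and −0.30 and −0.36 in H12. In E3 they were −0.22 and −0.18. The library ranges of the 2 classes overlapped in G4 and in E3 and not in H12. All are set against the 0 h libraries of the 3 clones together, so they are not each clone's own change. At 0 h the mean mitotic value was already 0.06 in G4 and −0.07 in E3. A difference between the clones in this was not tested. The 2 sets differ in cell line, RNA fraction and counted span, which cannot be told apart here, and the difference between the sets was not tested.

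The genes with large falls were in part those of E14 cells, such as Ccne1, Esco2 and Ccnb1, and in part not, such as Pola1. Ccne1 had a lowest, median and highest level of 98.4, 114 and 137 CPM over the 6 libraries at 0 h, 43.1, 56.9 and 68.2 at 24 h, 40.9, 45.7 and 53.2 at 48 h and 38.4, 46.9 and 51.1 at 74 h, so that no later library reached the 0 h range (−1.32 ± 0.09, adjusted p = 1.42e-14 at 74 h). Esco2 stood at 79.6, 85.4 and 91.8 CPM at 0 h, 46.5, 57.5 and 78.4 at 24 h, 24.5, 31.7 and 52 at 48 h and 17.2, 25.6 and 28.2 at 74 h, again without overlap with 0 h (−1.85 ± 0.13, adjusted p = 3.91e-14). Pola1 stood at 608, 719 and 875 CPM at 0 h, 411, 443 and 573 at 24 h, 308, 393 and 579 at 48 h and 282, 399 and 502 at 74 h. It was called lower at 74 h (−0.96 ± 0.11, adjusted p = 6.32e-09), where in E14 total RNA it had no call at 72 h. Among the mitotic members Ccnb1 stood at 80.1, 88.7 and 91.4 CPM at 0 h, 54, 62.8 and 67.9 at 24 h, 48.7, 57.1 and 60.5 at 48 h and 43.5, 49.5 and 56.4 at 74 h, without overlap with 0 h (−0.81 ± 0.07, adjusted p = 1.31e-12). Bub1, the checkpoint kinase of the kinetochore, stood at 148, 158 and 175 CPM at 0 h and 64, 104 and 107 at 74 h (−0.77 ± 0.10, adjusted p = 5.66e-08).

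Of the 5 members that rose in E14 cells, 4 also rose in the clones. Rrm1 stood at 77.2, 92.6 and 116 CPM at 0 h, 83.1, 93.1 and 113 at 24 h, 92.5, 113 and 186 at 48 h and 148, 160.03 and 213 at 74 h, all 74 h libraries above those at 0 h (0.81 ± 0.12, adjusted p = 2.17e-07). Gins2 stood at 12.6, 14.5 and 14.7 CPM at 0 h and 20.5, 22.2 and 22.9 at 74 h (0.65 ± 0.11, adjusted p = 6.86e-06), and Aurkb at 31.3, 34.7 and 38.6 and 44, 48.7 and 53.4 (0.49 ± 0.11, adjusted p = 1.56e-04), both without overlap. Rfc3 stood at 16.9, 20.6 and 24.4 CPM and 20.5, 30.4 and 33.9 CPM (0.47 ± 0.10, adjusted p = 1.16e-04), with overlap. Cdkn3, higher in E14 cells, had no call in the clones (−0.28 ± 0.16, adjusted p = 0.109). Mcm7, Rrm2, Plk1 and Cdc6 were called higher at 74 h in the clones and not at 72 h in E14 cells, at 0.40 ± 0.08, 0.40 ± 0.09, 0.29 ± 0.09 and 0.27 ± 0.09. Cdc6 is the 1 member with calls in opposite directions, lower in E14 cells at 72 h. That E14 call was lost when single libraries were left out (adjusted p up to 0.224).

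Across both sets, 7 replication and 5 mitotic members were called lower at E14 72 h and at 74 h in the clones, and 3 replication members and 1 mitotic member were called higher at both. Of all tested genes, 29.3% were lower and 30.4% higher at E14 72 h, and 37.2% and 36.5% in the clones at 74 h. The share of all genes called in both sets is not given here, so the shared counts have no background. Of the 7 members lower at E14 72 h on the authors' scaling (5 replication, 2 mitotic), 4 replication and 2 mitotic members were lower in the clones. Another 4 replication and 11 mitotic members were called lower at 74 h in the clones and not at 72 h in E14 cells. In turn, 5 replication members were called lower at 72 h in E14 cells and had no call at 74 h in the clones. These differences between the sets were not tested. The 11 mitotic members include Nusap1, a spindle protein (−0.65 ± 0.11 in the clones, 0.26 ± 0.13 in E14), Ttk (−0.51 ± 0.08 and −0.13 ± 0.11) and Kif11, the kinesin that separates spindle poles (−0.49 ± 0.07 and 0.01 ± 0.13). Over the 50 members the changes in the 2 sets had a Pearson correlation of 0.76 at 24 h, 0.69 at 48 h and 0.61 at the last time, with Spearman values of 0.69, 0.60 and 0.41. These describe 50 genes that share the libraries of each set and are not independent. Of 40 other replication genes 26 were lower and 4 higher in the clones at 74 h, of 40 other mitotic genes 20 were lower and 4 higher, and all 7 CDK inhibitor genes were higher, with Cdkn2c at 3.18 ± 0.36.

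**Figure D4:**
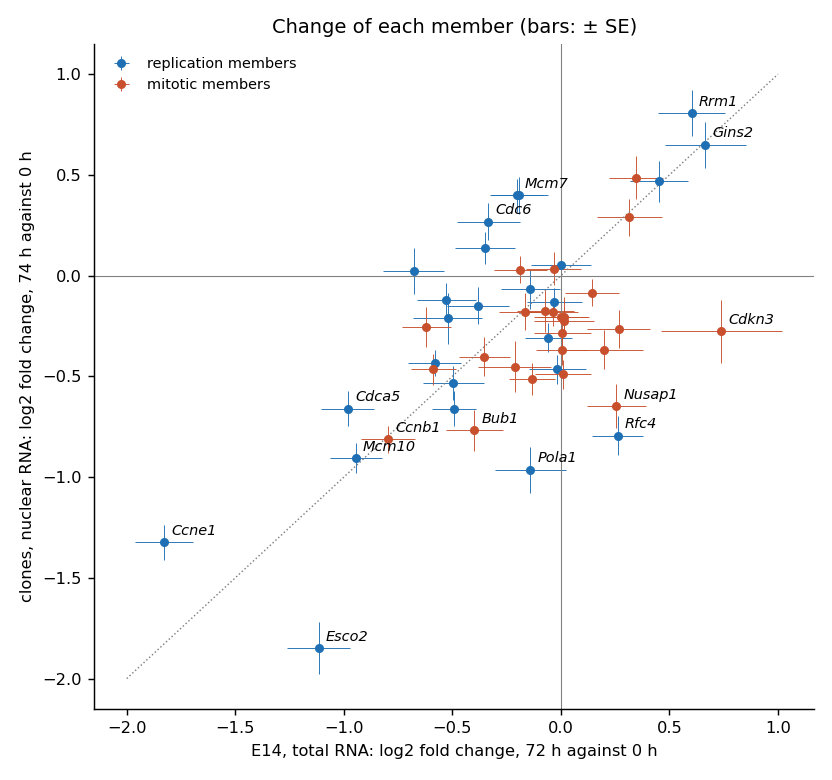
Log2 fold change of each member in E14 total RNA (72 h against 0 h, horizontal) and in nuclear RNA of the clones (74 h against 0 h, vertical), with bars of 1 SE. Ccne1, Esco2, Ccnb1 and Mcm10 were low on both axes, Rrm1 and Gins2 high on both, and Pola1, Rfc4 and Nusap1 lay well below 0 on the vertical axis alone.

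Auxin for 6 h and RA for 4 h gave no called change in any of the 50 genes of SCC1-mAID cells. SCC1 is the cleavable subunit of cohesin, the ring that holds sister chromatids together until separase opens it. Auxin acts on the protein, so the RNA of its gene does not check the depletion. RA against untreated gave no called member with 2.57% of all tested genes called (1.85% higher, 0.720% lower), auxin against untreated none with 0.235% called, RA in auxin against auxin alone none with 2.64% called (1.82% higher), and the difference of the 2 RA responses none with 0% called. DESeq2 called no member in these 4 comparisons either. At an unadjusted p under 0.05 the counts of replication and mitotic members were 1 and 2 for RA, 0 and 4 for auxin, 2 and 4 for RA in auxin, and 1 and 4 for the difference. Leaving out the auxin library of replicate 1 gave 2 called members for RA in auxin against auxin, Mcm2 and Cdc20.

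Mcm2 stood at 319, 313 and 303 CPM in untreated cells, 267, 283 and 284 with RA, 328, 273 and 199.8 with auxin and 354, 288 and 434 with both. The 3 auxin libraries were far apart from each other, and those with auxin and RA overlapped them (0.43 ± 0.17, adjusted p = 0.247). Cdc20 stood at 208, 170.3 and 191, 195, 199.99 and 205, 267, 184 and 138 and 270.3, 189 and 347 CPM in the same order, with the groups overlapping (0.46 ± 0.22, adjusted p = 0.33 for RA in auxin). Esco2, which acetylates cohesin, stood at 78.2, 78.1 and 106 CPM untreated and 108, 112 and 107 with auxin. All 3 auxin values were above all untreated values, with a change of 0.32 ± 0.15, adjusted p = 0.418. Cdca5, whose protein binds cohesin, stood at 55.2, 52.8 and 56.8 CPM untreated and 60.5, 60.1 and 45.9 with auxin, which overlapped (0.01 ± 0.15, adjusted p = 0.979). Ccnb1 stood at 80.4, 89.1 and 84.9 CPM untreated and 86.9, 119.6 and 139 with auxin (0.45 ± 0.18, adjusted p = 0.335), with 1 of 3 auxin values among the untreated ones. Mki67 stood at 872, 936 and 829 CPM untreated and was below that in all 9 treated libraries, at 732, 618 and 723 with RA, 707, 743 and 644 with auxin and 732, 753 and 723 with both. None of its changes was called (−0.35 ± 0.12, adjusted p = 0.228 for RA, −0.33 ± 0.12, adjusted p = 0.282 for auxin). Ccne1, the gene that fell most from 24 h on in E14 cells, stood at 252, 276 and 268 CPM untreated and 258, 209 and 239 after 4 h of RA (−0.17 ± 0.14, adjusted p = 0.752). The median change of the replication and mitotic members was −0.04 and 0.00 with RA, 0.05 and 0.16 with auxin, and 0.09 and 0.14 for RA in auxin. On the authors' scaling the all-gene median was 0.18 for RA and −0.14 for RA in auxin, and again no member was called.

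The deletion clones differed from G4 in few members, by small amounts. At 0 to 6 h, 3 replication members were higher and 1 lower, and 5 mitotic members were lower, with 26.9% of all tested genes called (11.6% higher, 15.3% lower). The higher ones are Lig1, the DNA ligase of Okazaki fragments (0.36 ± 0.05, adjusted p = 4.59e-06), Pola1 (0.27 ± 0.09, adjusted p = 0.0187) and Prim1, the primase (0.17 ± 0.05, adjusted p = 0.0225). The lower ones are Ccne1 (−0.25 ± 0.06), Ube2c (−0.30 ± 0.09), Mki67 (−0.30 ± 0.07), Cdc20 (−0.26 ± 0.07), Plk1 (−0.25 ± 0.07) and Ccna2 (−0.25 ± 0.07). Taken apart, E3 and H12 had −0.35 and −0.26 for Ube2c, −0.25 and −0.34 for Mki67, −0.08 and −0.43 for Cdc20, and 0.26 and 0.45 for Lig1. Pola1 lost its call without the library of G4 0 h replicate 1, G4 4 h replicate 1 or G4 6 h replicate 1 (adjusted p from 0.057 to 0.0598), Prim1 without G4 0 h replicate 1, G4 2 h replicate 2, G4 4 h replicate 1 or G4 6 h replicate 1 (adjusted p from 0.0546 to 0.103), and Ccna2 without G4 0 h replicate 1 (adjusted p 0.0653).

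At 24 to 74 h, 4 replication members and no mitotic member were lower and none was higher, with 18.1% of all genes called (8.26% higher, 9.88% lower). They are Pcna (−0.33 ± 0.07, adjusted p = 7.88e-04), Rrm2 (−0.26 ± 0.08, adjusted p = 0.0209), Rfc3 (−0.26 ± 0.09, adjusted p = 0.0342) and Mcm10 (−0.18 ± 0.06, adjusted p = 0.0464). Taken apart, E3 and H12 had −0.17 and −0.49 for Pcna, −0.02 and −0.50 for Rrm2, −0.09 and −0.43 for Rfc3, and −0.18 and −0.19 for Mcm10. H12 was thus further from G4 than E3 for Pcna, Rrm2 and Rfc3. Rrm2 lost its call without the library of G4 24 h replicate 2, G4 48 h replicate 1, G4 74 h replicate 1 or H12 74 h replicate 1 (adjusted p from 0.053 to 0.176), Rfc3 without that of E3 48 h replicate 2, E3 74 h replicate 2, G4 24 h replicate 1 or 2, G4 48 h replicate 1, G4 74 h replicate 1, H12 24 h replicate 2 or H12 48 h replicate 2 (adjusted p from 0.052 to 0.151), and Mcm10 without that of E3 24 h replicate 2, E3 48 h replicate 2, E3 74 h replicate 1 or 2, G4 24 h replicate 1, G4 48 h replicate 1, G4 74 h replicate 1 or 2, H12 24 h replicate 1 or 2, H12 48 h replicate 2 or H12 74 h replicate 1 (adjusted p from 0.0593 to 0.192). The summed endoderm markers at 74 h were 9207 to 10702 CPM in H12, 1408 to 1711 CPM in E3 and 1123 to 1420 CPM in G4, and their part in these differences was not tested. The count of 4 ranged from 1 to 9 when single libraries were left out, with 9 without E3 48 h replicate 1, 1 without G4 48 h replicate 1 or G4 74 h replicate 1, and 2 without E3 74 h replicate 2, G4 24 h replicate 1 or 2, H12 24 h replicate 2, H12 48 h replicate 2 or H12 74 h replicate 1.

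The 2 deleted clones also differed from each other, in a share of members below that of all genes. In E3 against H12 over all times, 6 replication members were higher and 2 lower, and 7 mitotic members were higher and 2 lower, which is 17 of 50, with 40.9% of all genes called (20.2% higher, 20.7% lower). In the same comparison 8 of 12 stem cell markers were lower (median −0.44), and 4 of 6 tested fibroblast or feeder markers were higher and 1 lower (1.66). Of 8 endoderm markers 1 was higher and 4 lower (−0.38), and of 8 neural markers 3 were higher and 2 lower (0.62). Their part in it was not tested. Kif23, a kinesin of the central spindle, was higher in E3 (0.39 ± 0.04, adjusted p = 1.18e-08), as were Cdc20 (0.35 ± 0.07, adjusted p = 4.58e-05) and Rrm2 (0.34 ± 0.06, adjusted p = 3.84e-05). Cdkn3 was lower in E3 (−0.36 ± 0.10, adjusted p = 0.00556), as was Cdc45 (−0.25 ± 0.05, adjusted p = 7.31e-05).

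For each called member the median of up to 40 tested genes around it on the chromosome was set beside it. The neighbours of Lig1 on chromosome 7 had a median of 0.01 in the deletion comparison at 0 to 6 h, and 19 of 40 lay below 0. The neighbours of Ube2c on chromosome 2 had a median of 0.05, and those of Mki67 on chromosome 7 a median of 0.12, both opposite in sign to the member. The neighbours of Pcna on chromosome 2 had a median of 0.02 at 24 to 74 h, and those of Rfc3 on chromosome 5, of which 20 were tested, a median of −0.02. In E3 against H12 the neighbours of Kif23 on chromosome 9 had a median of 0.01 and those of Cdkn3 on chromosome 14 a median of 0.01. Over all called members, the neighbours' median had the sign of the member for 4 of 9 in the deletion comparison at 0 to 6 h, 1 of 4 at 24 to 74 h and 12 of 17 in E3 against H12. Their sizes are not compared. A median of many genes tends to lie nearer 0 than single genes do.

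**Figure D5:**
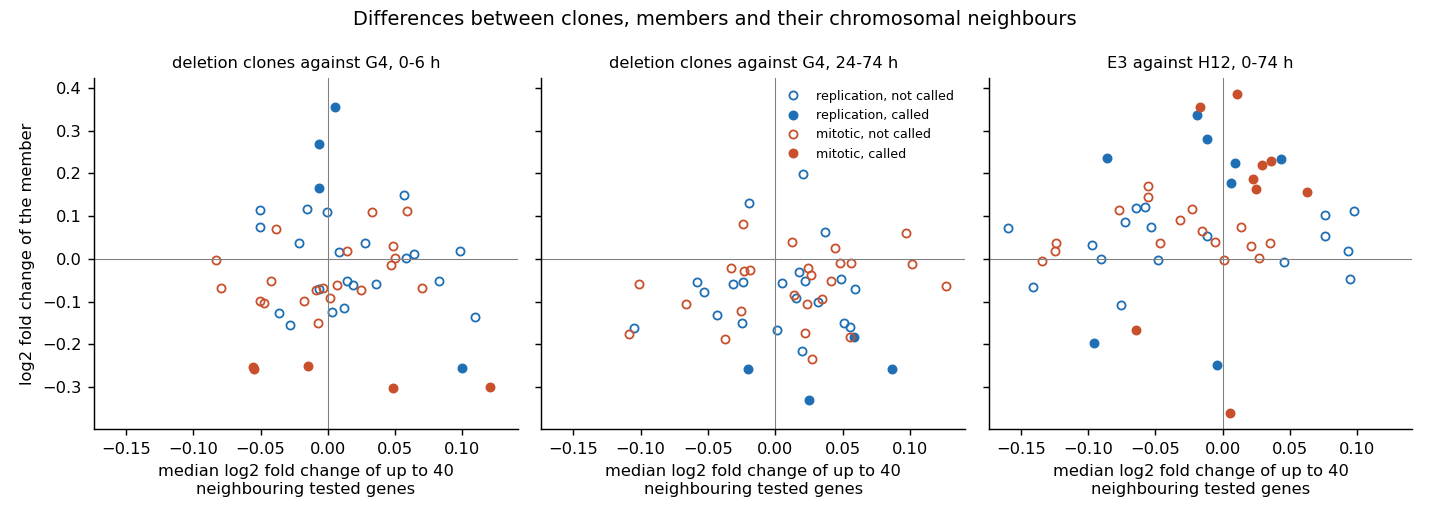
Log2 fold change of each member between clones (vertical) against the median of its neighbouring tested genes (horizontal), for the deletion clones against G4 at 0 to 6 h and at 24 to 74 h and for E3 against H12. The neighbour medians of called members lay between −0.10 and 0.12, and the called members themselves reached from −0.33 to 0.36 against G4 and from −0.36 to 0.39 between E3 and H12.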

How the data were processed

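Per the labels' protocols, RNA of mouse cells mixed with Drosophila SG4 cells was depleted of rRNA, made into directional libraries and sequenced as paired reads of 42 bases. The builds mm10 and dm6 and the tools Bowtie2, STAR, DESeq2 and SAMtools are named in the submitters' processing notes. The deposited values are a signal and an FPKM for each transcript and library, made by the authors. The FPKM served only to compare levels between genes. In all 79 libraries the deposited signal was a whole number of reads divided by 1 factor per library: at least 99.9966% of values came out whole within 0.1 read. The sources used here do not say if Drosophila reads set those factors. The count test on these recovered reads was the main test, and log-scale tests of the deposited values were alternatives.

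Genes were reduced to their transcript of highest mean signal. Reads were tested with edgeR 4.0.16 in R 4.3.3 (TMM scaling, filterByExpr, robust quasi-likelihood fit with 1 mean per group, Benjamini-Hochberg adjustment over all tested genes), with limma 3.58.1 and DESeq2 1.42.0 as alternatives. Errors of log2 fold changes are standard errors (SE). The fit was tested on simulated data with known changes. Simulated libraries were drawn independently and without a shift of all genes, so they do not check the fit under shared replicate deviations or another scaling. Transcripts of equal span had equal signals in 3729 of 3729 cases for SCC1-mAID cells and 3745 of 3745 for the clones, against 663 of 3747 for E14 cells, so the nuclear RNA values cover whole gene spans. For the last E14 time the titles give 72 h and the characteristics 74 h. Clone replicates are not said to be separate cultures, so their p-values measure the spread between these libraries, which may be technical. No 2 libraries of a group agreed within sampling noise. Of the 50 members, 6 overlap a gene on the opposite strand and 2 a gene on the same strand, so their reads may be shared.

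The members and lists were chosen with earlier results of these data known. Values in every library are given for 16 anchor members and for the 3 highest and 3 lowest of each class at E14 72 h; elsewhere the called members of largest change are named. Promoter windows come from RefSeq, build GRCm38.p6. Alternatives were other scalings and tests, other filters, the longest transcript, 1 comparison at a time, a replicate block and leaving out each library.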

Additional observations from a re-analysis of the deposited data

Results flagged for a closer look

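In groups of 4 libraries, 125 tests for a library far from the other 3 were made, over 5 groups and 25 quantities (23 members and the means of the 2 classes), and 5 stood out, where about 1 in 20 does by chance. In E14 cells at 2 h, Esco2 was low in replicate 1, at 108 CPM against 124 to 126 CPM in the others. At 4 h, Mki67 was high in replicate 2, at 812 CPM against 475 to 529 CPM. At 6 h, Cdc20 was high in replicate 4, at 299 CPM against 239.7 to 248 CPM, Rrm1 was low in replicate 1, at 166 CPM against 197 to 198 CPM, and Cdkn3 was high in replicate 1, at 8.42 CPM against 4.99 to 5.30 CPM. All 5 fell in the first 6 h, where no member was called.

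For 2 members every E14 library at 72 h lay above both E14 libraries at 0 h, and every clone library at 74 h below all clone libraries at 0 h. The share of all tested genes that part in this way is not given here, so this count has no background. Rfc4, a clamp loader subunit, had a log2 fold change of 0.26 in E14 total RNA at 72 h and −0.79 in nuclear RNA of the clones at 74 h. Nusap1 had 0.26 and −0.65. The difference between the sets was not tested. Rfc4 overlaps Eif4a2 and Nusap1 overlaps Oip5 on the opposite strand.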

How the results depend on the processing

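Over the 16 comparisons, 340 counts of called members under an alternative stayed within 1.5 times the reported count and 23 did not. These counts add higher and lower calls, so a shift between the directions does not show in them, and counts of 0 that stayed at 0 are included. At E14 72 h the authors' scaling took the mitotic members from 5 lower and 2 higher to 2 lower and 7 higher. Of the changes of named members under an alternative, 13563 kept direction and call, 285 lost the call, 121 gained one, 6 values without a test moved and none reversed. The count at E14 72 h (23) was 14 with limma on log2(deposited signal + 1) and 15 with + 8, both of which keep the authors' scaling, and 15 to 23 when single libraries were left out (15 without 0 h replicate 4). The count at E14 72 h against 24 h (14) was 9 with each of those 2 fits and 9 with the groups of the comparison alone, and 10 to 13 without single libraries. At E14 24 h (6) it was 3 to 6 (3 without 0 h replicate 3). At E14 2 to 6 h (0) it was 1 with replicates 3 and 4 only. In the clones at 2 to 6 h (5) it was 9 with the groups of the comparison alone, 9 with a replicate block, and 3 to 7 without single libraries (3 without E3 0 h replicate 2 or H12 0 h replicate 2). In the deletion clones against G4 at 24 to 74 h (4) it was 1 with the groups of the comparison alone and 1 to 9 without single libraries. For RA in auxin against auxin (0) it was 0 to 2 (2 without the auxin library of replicate 1). The cause of these shifts was not tested, except that fits to the groups alone use fewer libraries.

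The main fits did not use the replicate numbers to pair libraries. Deviations correlated above 0.1 in 35 of 67 same-number pairs in E14 cells, 11 of 18 in SCC1-mAID cells and 100 of 126 in the clones. The median correlations were 0.12, 0.20 and 0.32. Each clone group holds 2 libraries, whose deviations mirror each other, so the pairs of replicate 1 and those of replicate 2 repeat the same values. The clone count of 126 therefore holds each value 2 times and is not comparable with the counts of the other sets. Most same-number clone libraries thus shared deviations, which the main clone tests leave out. With the replicate block the E14 count at 72 h was 24. With 2 libraries at 0 h, each E14 change rests on those 2, and the least expressed members (Cdkn3, Gins2) have the fewest reads behind them.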
